A study of Canis lupus familiaris with 222 samples.

Results

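The 100 gene identifiers described here were near silence in most canine mammary tumors (CMTs) and in adjacent normal mammary tissue, and high in a few CMTs. They were chosen from the 24580 Ensembl identifiers of the expression table by 3 measured values. The median had to lie under 0.5 FPKM over the CMTs, the highest value over 64 normal tissues had to lie under 2 FPKM, and of the 9335 identifiers within both limits the 100 with the highest tumor value were taken, without ENSCAFG00000009558. That identifier, with a tumor median of 0.572 and a highest normal value of 203 FPKM, lay outside both limits in any case. Low medians, low normal values and high maxima are therefore properties of the choice and not findings. At the limits, the last member taken was ENSCAFG00000001015 at 34.3 FPKM and the next identifier was ENSCAFG00000008098 at 31.5. On the median, ENSCAFG00000000120 lay just inside at 0.452 FPKM and ENSCAFG00000029100 just outside at 0.994. On the normal tissues, ENSCAFG00000032430 lay just inside at 1.97 FPKM and ENSCAFG00000000681 just outside at 2.02.

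RNA-seq of poly(A) RNA was performed on spontaneous mammary tumors of female dogs and on normal mammary tissue beside the tumor from 64 of the same dogs, with 1 tumor per dog and no treatment, allele or transgene named. The CMTs comprised 59 simple carcinomas, 33 complex carcinomas, 13 carcinomas in benign mixed tumor, 18 simple adenomas, 16 complex adenomas, 10 benign mixed tumors and 8 tumors labelled osteosarcoma (3), carcinosarcoma (3), fibrosarcoma (1) or spindle cell carcinoma (1), called sarcoma and spindle cell CMTs below. The dogs came from 19 labelled breeds, 105 were intact and 49 neutered, and the labelled age, given without a unit for 150 of them, ran from 2 to 19 with a median of 12. The reads had been mapped to CanFam3.1 with TopHat and summarised by Cufflinks as FPKM, which scales the fragments of a transcript to its length and to library depth.

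Bulk tissue is a mixture, and a high value can come from many cells with a transcript or from a few cells with very much of it; fewer cells of a type and less RNA per cell cannot be told apart in these libraries. In simple CMTs the epithelium alone is neoplastic, complex CMTs also hold proliferating myoepithelial cells, and mixed CMTs also hold cartilage or bone. Carcinosarcomas combine malignant epithelial and mesenchymal tissue. The study sorted the CMTs by non-negative matrix factorization into clusters NMF1 to NMF5, of which it annotated NMF3 with epithelial-to-mesenchymal transition, and by breast cancer subtype genes into basal and non-basal CMTs. Both groupings were made from the same expression values as the choice of members, so that counts by cluster or class are descriptions without a test. The files do not pair the identifiers with gene names, and the roles of the members were not analysed here.

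Most members exceeded 10 FPKM in a single CMT. This held for 62 of the 100, while 22 did so in 2 CMTs, 6 in 3, 2 in 4, 2 in 5, 3 in 6 and 3 in 7. The 100 members gave 181 such values. These values lay in 107 CMTs, and the other 50 CMTs had no member above 10 FPKM. The count per tumor was 1 in 59 CMTs, 2 in 30, 3 in 12, 4 in 4 and 5 in 2. Of the 181 values, 79 came from dogs whose own normal tissue was sequenced, and that tissue was listed at 0 in 56 and reached at most 1.62 FPKM.

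The label of genes switched on in few tumors described the members only in part, because their values fell into 2 kinds. This split was made after the values were seen and carries no test. A total of 73 members were listed at 0 in all 64 normal tissues and in all CMTs but 6 or fewer. They held 115 values above 0 in all, of which 110 exceeded 10 FPKM and the other 5, at 2.77 to 5.19 FPKM, did not. Low values between silence and a high level were nearly absent from these 73 members, in large part by the choice and the split. The choice put the highest value of each member above 10 FPKM, and 47 of the 73 had no other value above 0. The remaining 27, called graded here, had values above 0 in 28 to 156 CMTs (median 113) and in 2 to 64 normal tissues (median 36). Their values below the highest differed. In 14 of the 27 the second value lay under 10 FPKM, and in 2 of them under 1 FPKM, while 12 were listed at 0 in more CMTs than not. ENSCAFG00000002882, named after its values were seen, fell from 498 to 0.267 FPKM between its highest and second value and was listed at 0 in 129 CMTs.

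**Figure D1:**
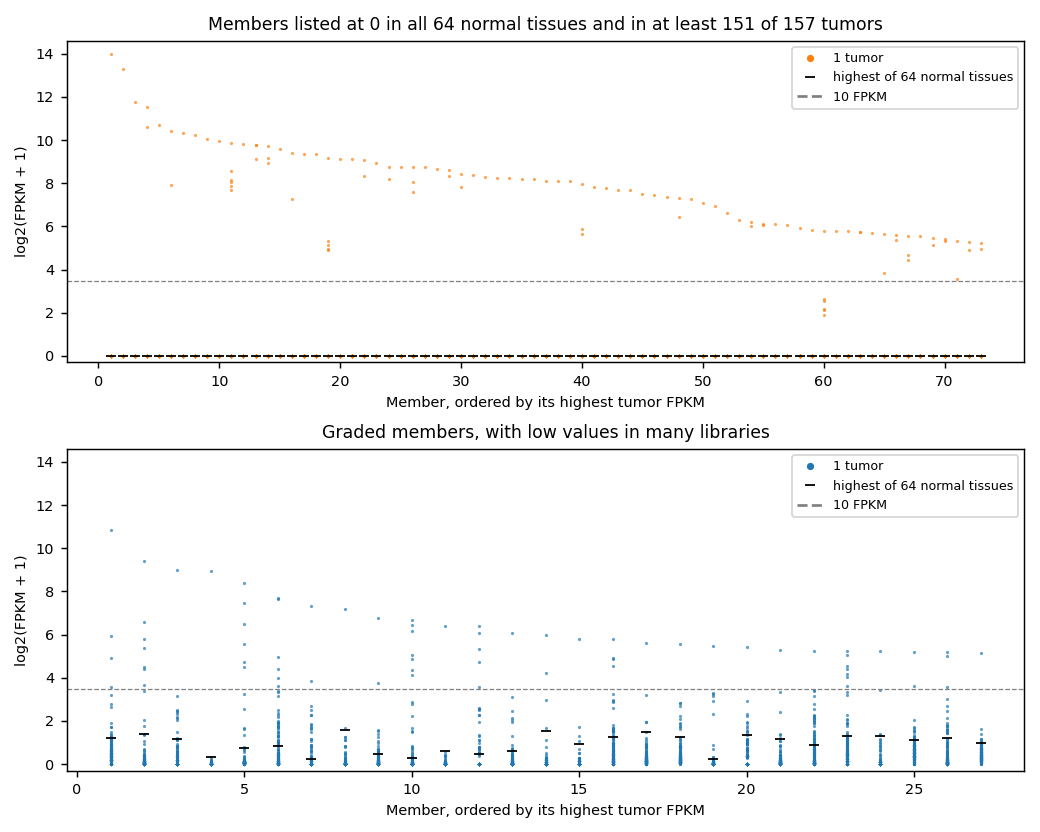
Every tumor value of the 100 members, with the member on the x axis ordered by its highest tumor FPKM and log2(FPKM + 1) on the y axis. Each point is 1 CMT, the black dash is the highest of 64 normal tissues and the dashed line marks 10 FPKM. The 73 members of the upper panel lie at 0 apart from 115 values, whereas the 27 graded members of the lower panel have values above 0 in 28 to 156 CMTs, with gaps below the highest value in many of them.

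The highest values of the whole set belonged to members of the first kind. ENSCAFG00000026076 was listed at 16235 FPKM in the carcinosarcoma CMT-577 and at 0 in the other 156 CMTs. ENSCAFG00000028051 was listed at 10050 FPKM in the simple carcinoma CMT-210 and ENSCAFG00000021643 at 3495 FPKM in the simple carcinoma CMT-109, each at 0 in every other library. ENSCAFG00000028434 had a value in 2 CMTs, 2999 FPKM in CMT-400 and 1579 FPKM in CMT-109. Among the 10 members with the highest values, 9 were of this kind, and 7 of the 9 had a single value above 0 in all libraries. The next of them, ENSCAFG00000027081 (1634 FPKM), ENSCAFG00000026333 (1271), ENSCAFG00000028348 (1202) and ENSCAFG00000028223 (1042), were also above 0 in 1 CMT each. ENSCAFG00000022353 was listed at 1360 FPKM in the simple carcinoma CMT-414 and at 238 in the complex adenoma CMT-203. Over the 73 members the highest value ran from 36.9 to 16235 FPKM with a median of 277, against 34.3 to 1842 with a median of 62.1 for the graded members.

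A value listed as 0 in Cufflinks output can be a failed estimate as well as an absence of reads, and levels of different identifiers also depend on transcript lengths, which were not analysed here. Of the 73 members, 47 had exactly 1 value above 0. For the 26 with more, each value was multiplied by the mapped reads of its library and the highest was set against the smallest, which leaves the transcript length out. The ratio ran from 1.04 to 18.5 with a median of 1.82. The same ratio ran from 167 to 40309 with a median of 2668 over the graded members, which have more values each. ENSCAFG00000026673 had the most values of the first kind, with 918, 372, 282, 264, 230 and 203 FPKM in 6 CMTs. These were 2 complex adenomas, 2 complex carcinomas, 1 simple carcinoma and 1 carcinoma in benign mixed tumor, spread over NMF1, NMF2 and NMF3. ENSCAFG00000024630 was listed at 567 FPKM in the simple carcinoma CMT-586 and at 38.9, 34, 30.0 and 28.5 FPKM in 4 further CMTs of 4 histologies, all in NMF1.

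**Figure D2:**
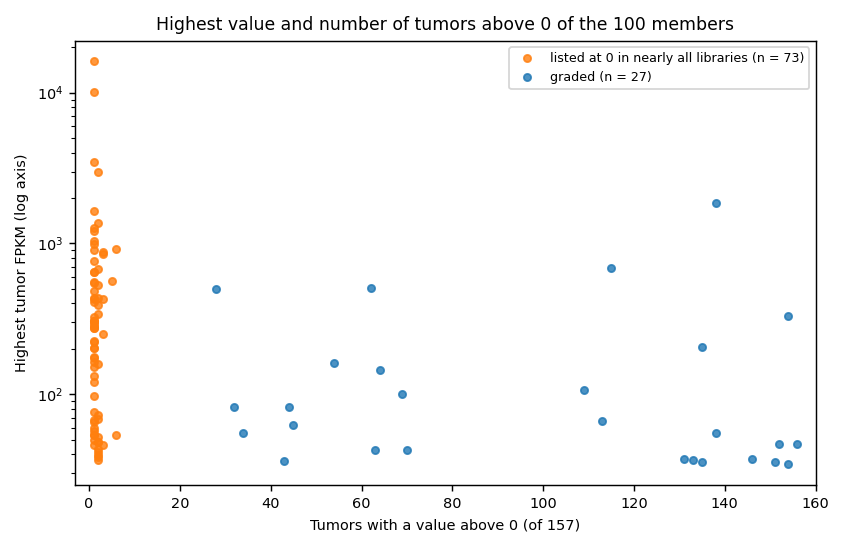
Highest tumor FPKM (log axis) against the number of CMTs with a value above 0, with 1 point per member. The 73 members in orange lie at 6 CMTs or fewer, the 27 graded members in blue at 28 or more, and no member lies between.

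Identifiers above 0 in a single library also occurred in normal tissue, which the choice of members did not cover above 2 FPKM. In the whole table, 290 identifiers were above 0 in exactly 1 library and that library a CMT, and for 75 of them the value exceeded 10 FPKM, or 0.478 per CMT library. The same was found for 94 identifiers in a normal tissue, 17 of them above 10 FPKM, or 0.266 per normal library, with a highest value of 1708 FPKM. By contrast, of the 5540 identifiers with a tumor median above 10 FPKM, 167 were listed at 0 in at least 1 CMT. The complex adenoma CMT-351, which has no cluster or class, was not used in the choice. None of the 73 members was above 0 there, and 16 of the 27 graded members were, at up to 1.48 FPKM, as the numbers of CMTs above 0 that define the kinds would give.

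The values of the 73 members were spread over all 5 clusters and all histology groups. NMF1, with 58.6% of the CMTs, held 71 of the 110 values above 10 FPKM (64.5%), and NMF3, with 11.5% of the CMTs, held 12 (10.9%). At least 1 such value was found in 56.5% of NMF1 CMTs (52 of 92, 95% Wilson interval 46.3 to 66.2) and in 44.4% of NMF3 CMTs (8 of 18, 24.6 to 66.3). Intervals cover counting error only. Benign CMTs had one in 25 of 44, grade 1 CMTs in 28 of 62, grade 2 CMTs in 16 of 23 and grade 3 CMTs in 12 of 28. Grades and histologies are those of the labels, and the study's clinical table gives 35 benign CMTs in place of 44. Among histologies the share was highest in complex adenoma, with 12 of 16 (75%, 50.5 to 89.8), and lowest in sarcoma and spindle cell CMTs, with 2 of 8 (25%, 7.15 to 59.1). Basal CMTs held 27 of the 110 values, 24.5% against a 23.6% share of the CMTs.

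The graded members gave another picture, with their high values gathered in NMF3 CMTs. Of their 71 values above 10 FPKM, 34 (47.9%) lay in the 18 NMF3 CMTs, and 14 of these 18 had at least 1 (77.8%, 54.8 to 91). NMF2 had 14 of 35 (40%, 25.6 to 56.4) and NMF1 had 17 of 92 (18.5%, 11.9 to 27.6). In NMF4 it was 1 of 7, and in NMF5 0 of 5. Values per CMT came to 1.89 in NMF3, 0.4 in NMF2 and 0.239 in NMF1. Of the 27 graded members, 16 had their highest value in an NMF3 CMT, 11 exceeded 10 FPKM in NMF3 CMTs alone and 8 in none of them. Of the 11, 10 exceeded 10 FPKM in a single CMT, so that they could lie in only 1 cluster, and 7 of these 10 came from 3 CMTs. The high values did not extend to the cluster as a whole, since the median over NMF3 was higher than over the other 139 CMTs for 10 graded members, equal for 10 and lower for 7.

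NMF3 CMTs also held more graded values than their share of CMTs within each surgery year, and both with and without the rare histologies. NMF3 CMTs held 11 of 23 graded values in 2016 (6 of 42 CMTs), 20 of 40 in 2017 (11 of 98 CMTs) and 3 of 8 in 2018 (1 of 17 CMTs). The 7 sarcoma and spindle cell CMTs in NMF3 held 15 values in 6 CMTs, and the 11 NMF3 CMTs of other histologies held 19 values in 8 CMTs. By histology, graded values were found in 6 of 8 sarcoma and spindle cell CMTs (75%, 40.9 to 92.9), 17 of 59 simple carcinomas (28.8%, 18.8 to 41.4), 12 of 33 complex carcinomas (36.4%, 22.2 to 53.4) and 0 of 16 complex adenomas (upper limit 19.4%). By labelled grade, they were found in 6 of 44 benign CMTs (13.6%, 6.4 to 26.7), 20 of 62 grade 1 CMTs (32.3%), 6 of 23 grade 2 CMTs (26.1%) and 14 of 28 grade 3 CMTs (50%, 32.6 to 67.4). Basal CMTs held 36 of the 71 values in 20 of 37 CMTs (54.1%, 38.4 to 69), and non-basal CMTs held 35 values in 26 of 120 CMTs (21.7%, 15.2 to 29.9). Identifiers within both limits that rose above 10 FPKM without reaching the top 100 numbered 164. Those of them that were graded had 150 values above 10 FPKM, 59 in NMF3 (39.3%) and 105 in basal CMTs (70%), chosen for counting after the first values were seen.

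**Figure D3:**
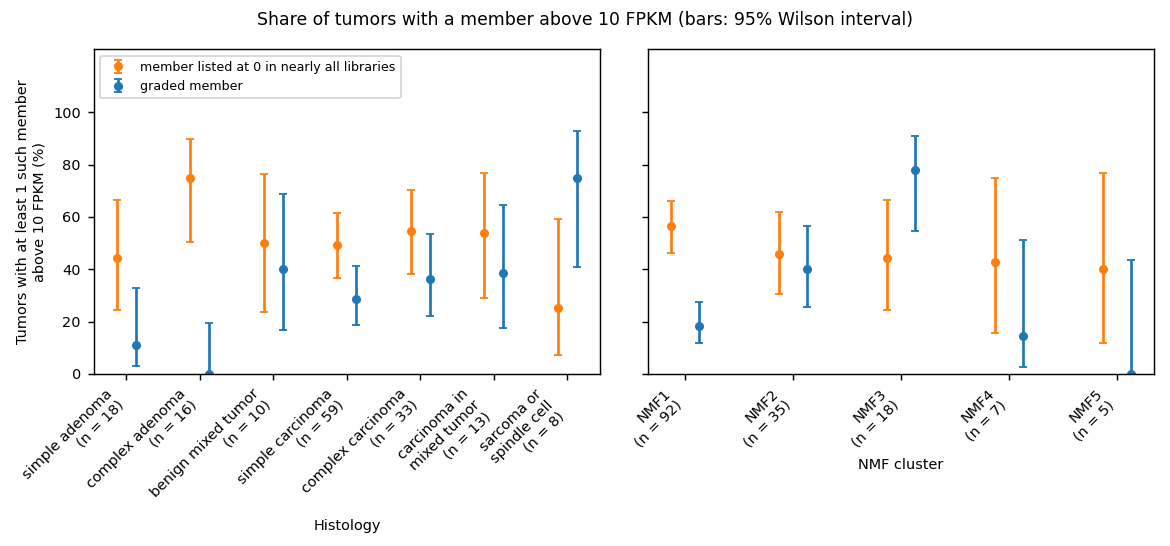
Share of CMTs with at least 1 member above 10 FPKM, by histology (left) and NMF cluster (right), in percent with 95% Wilson intervals, for the 73 members listed at 0 in nearly all libraries (orange) and the 27 graded members (blue). For the graded members the share was 77.8% in NMF3 and 18.5% in NMF1, whereas the orange shares ran from 40% to 56.5% over the 5 clusters.

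Library measures moved with part of these counts. The number of identifiers above 0 ran from 13191 to 17648 over the CMTs, with a median of 16980. The 78 CMTs above that median held 26 of the 71 graded values, and the other CMTs 45. For the 73 members it was 67 of 110 in the CMTs above the median and 43 in the others. Split at the median of mapped reads, the upper 78 CMTs held 30 of the graded values and 56 of the 110. The part of these measures in the counts was not tested.

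High values of different members were compared by the CMTs they shared, which the number of CMTs per member limits. Only 25 of the 73 members and 13 of the 27 graded members exceeded 10 FPKM in 2 or more CMTs and could share as many. Among 4950 pairs of members, 100 had at least 1 CMT with both above 10 FPKM. Of the 351 possible graded pairs 31 shared a CMT, and of the 2628 pairs among the 73 members 33 did. In 5 pairs 2 or more CMTs were shared, and these were graded pairs. The number that the counts per member would give was not computed. The closest were ENSCAFG00000009548 and ENSCAFG00000030721, with 5 shared CMTs, out of 7 for the first and 6 for the second. ENSCAFG00000002895 and ENSCAFG00000000120 exceeded 10 FPKM in the same 2 CMTs, CMT-318 and CMT-346. ENSCAFG00000023396 shared 3 CMTs with each of the first pair, and ENSCAFG00000030721 shared 2 with ENSCAFG00000015706.

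**Figure D4:**
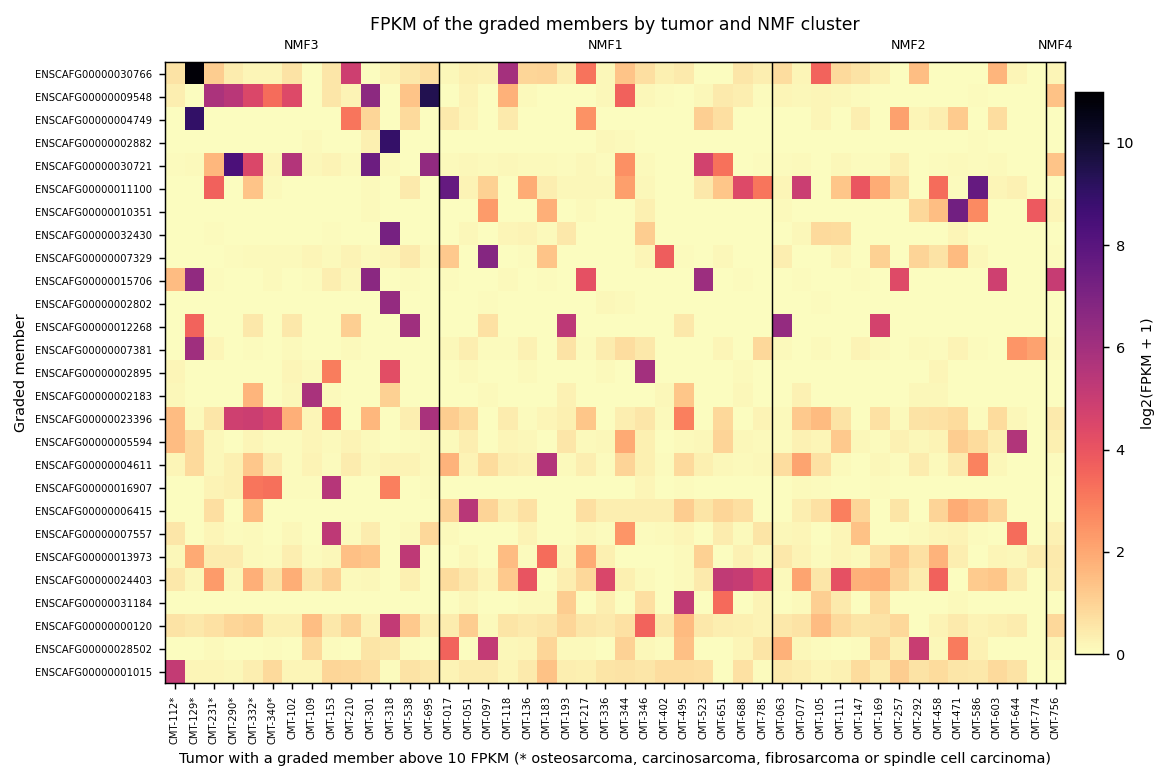
Values of the 27 graded members (rows, ordered by highest FPKM) in the 46 CMTs with at least 1 of them above 10 FPKM (columns, by NMF cluster), as log2(FPKM + 1) from light to dark. Asterisks mark sarcoma and spindle cell CMTs. The 14 NMF3 CMTs on the left hold 34 of the 71 values above 10 FPKM, and the columns of CMT-129 and CMT-318 hold 5 each.

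ENSCAFG00000009548 was above 10 FPKM in 7 CMTs, with 687 in the benign mixed tumor CMT-695, 95.6 in the complex carcinoma CMT-301, 53.8 in the carcinosarcoma CMT-231, 40.5 and 21.3 in the osteosarcomas CMT-290 and CMT-332, 20.1 in the benign mixed tumor CMT-102 and 11.6 in the solid simple carcinoma CMT-344. All but the last were NMF3 CMTs. Over all CMTs its median was 0.0548 FPKM and 42 were listed at 0. Own normal tissue was available for 4 of the 7 dogs and ranged from 0.166 to 1.62 FPKM.

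ENSCAFG00000030721 reached 329 FPKM in CMT-290, 175 in CMT-301, 88.6 in CMT-695, 45.7 in CMT-102, 25.5 in the carcinoma in benign mixed tumor CMT-523 and 21.5 in CMT-332. The first 3 and CMT-102 and CMT-332 were also the CMTs with high ENSCAFG00000009548, although the order of the levels differed between the members. Pearson's r of the pair was 0.81 on log2(FPKM + 1) over all CMTs, which is a description that rests on these shared CMTs.

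ENSCAFG00000023396 exceeded 10 FPKM in 4 CMTs, all basal NMF3 CMTs, at 55.1 in CMT-695, 28.9 in CMT-332, 27.8 in CMT-290 and 22.6 in the carcinosarcoma CMT-340. Outside NMF3 its highest value was 6.62 FPKM. Its median was 1.32 FPKM in NMF3 and 0.202 over the other CMTs.

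ENSCAFG00000024403 showed the opposite placing. It exceeded 10 FPKM in 7 CMTs, at 36.5 and 16.9 in 2 carcinomas in benign mixed tumor, 31.9, 22.0, 20.5 and 11.3 in 4 complex carcinomas and 15.1 in a simple adenoma. All 7 were non-basal, lay in NMF1 or NMF2 and were grade 1 or benign. Its highest value in NMF3 was 3.88 FPKM. ENSCAFG00000011100, above 10 FPKM in 6 CMTs, was at 205 in the simple adenoma CMT-017 and at 203 in the simple carcinoma CMT-586, but in NMF3 it reached only 11.3 FPKM.

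ENSCAFG00000015706 had no common cluster or histology among its 7 CMTs. Its values were 100 in CMT-301, 87.1 in the spindle cell carcinoma CMT-129, 71.0 in CMT-523, 31.8 in CMT-756, 27.9 in CMT-603, 19.5 in CMT-257 and 16.6 in CMT-217, over 5 histology groups and NMF1 to NMF4. The own normal tissue of 4 of these dogs was listed at 0. ENSCAFG00000012268 exceeded 10 FPKM in 5 CMTs of 4 histology groups, 4 of them basal, at 82.3, 66.6, 38.9, 25.4 and 10.9. ENSCAFG00000030766 was highest of all graded members, at 1842 FPKM in CMT-129, and exceeded 10 FPKM in 3 further CMTs at 60.9, 28.7 and 11.0.

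CMT-129 and CMT-318 had the most members above 10 FPKM, 5 each and all graded. In CMT-318, a grade 3 solid simple carcinoma, ENSCAFG00000002882 was at 498, ENSCAFG00000032430 at 144, ENSCAFG00000002802 at 82.7, ENSCAFG00000000120 at 35.4 and ENSCAFG00000002895 at 17.9 FPKM. The first 3 exceeded 10 FPKM in no other CMT. In CMT-129, a grade 2 spindle cell carcinoma, ENSCAFG00000004749 was at 507, ENSCAFG00000015706 at 87.1, ENSCAFG00000007381 at 66.2 and ENSCAFG00000012268 at 10.9 FPKM, beside ENSCAFG00000030766. Members of these 2 CMTs that were named for them were picked after their values were seen. Both CMTs were basal NMF3 CMTs and few identifiers were above 0 in them, 15757 in CMT-318 and 16234 in CMT-129, which put them at rank 155 and 149 of the CMTs from the highest. By mapped reads CMT-318 was at rank 154 and CMT-129 at rank 131 from the highest. All 6 CMTs with 3 or more graded members above 10 FPKM were NMF3 CMTs, and 3 of the 6 were sarcoma and spindle cell CMTs.

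Comparisons between labelled groups of CMTs were made with limma over all identifiers with a mean of at least 0.5 FPKM in the CMTs compared, on log2(FPKM + 1). A difference was called at a Benjamini-Hochberg adjusted p under 0.05 if it also came to 1 or more on the log2 scale. Members near silence pass such a filter through their few high values, so that the members tested are not all members and lean towards those high in the groups compared. The groups also share CMTs between comparisons.

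The 8 sarcoma and spindle cell CMTs were compared with the 59 simple carcinomas. The 8 are not of mesenchymal histology alone, since the carcinosarcomas also hold malignant epithelium and the spindle cell carcinoma is labelled malignant myoepithelioma. Of the 67 members that passed the filter, 6 were called higher and 0 lower, where 6% of the 14526 identifiers tested were called, 2.8% as higher and 3.19% as lower. These shares are not a like comparison, because the group sizes favour one direction for sparse members and several members passed the filter through the 8 CMTs. Placed in the 8 CMTs, the highest values of 80 of the 100 members could give a log2 difference of 1, and placed in the 59 simple carcinomas those of 10 could. The median log2 difference was -0.12 over these members and -0.07 over all identifiers tested. ENSCAFG00000009548 ran from 0 to 53.8 FPKM with a median of 4.88 in sarcoma and spindle cell CMTs and from 0 to 11.6 with a median of 0.0359 in simple carcinomas. The groups overlapped, with 3 of the 8 above every simple carcinoma and 6 of 8 above their median. The log2 difference was 2.23 (SE 0.365, adjusted p = 9.03e-06, limma). The mean of ENSCAFG00000009548 was 15.7 FPKM in the 8 CMTs and 0.333 in the simple carcinomas. It thus passed the filter through the 8 CMTs alone, and its p-value carries no further support.

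ENSCAFG00000030721 ran from 0.0345 to 329 FPKM (median 0.117) against 0 to 4.84 (median 0.0553), with a log2 difference of 1.75 (SE 0.386, adjusted p = 9.39e-04, limma). In this case 2 of the 8 lay above every simple carcinoma, and without CMT-290 the member fell below the filter and was not tested. Its mean was 44.2 FPKM in the 8 CMTs and 0.147 in the simple carcinomas. ENSCAFG00000023396 ran from 0.0659 to 28.9 FPKM (median 1.32) against 0 to 6.78 (median 0.282), with a difference of 1.53 (adjusted p = 0.00342, limma). Without CMT-290 this difference was 1.15 with an adjusted p of 0.0542 by limma, and the call was lost. ENSCAFG00000016907, named after its values were seen, ran from 0 to 8.74 FPKM (median 0.231) against 0 to 6.7 (median 0), with a difference of 1.15 (adjusted p = 0.00156, limma). It fell below the filter without CMT-009, CMT-332 or CMT-340. Its mean was 3.2 FPKM in the 8 CMTs and 0.225 in the simple carcinomas. This member and ENSCAFG00000030721, like ENSCAFG00000009548, passed the filter through the 8 CMTs alone, so that their p-values carry no further support.

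The 2 remaining calls rested on 1 CMT each, were of the kind listed at 0 in nearly all libraries and passed the filter through that CMT alone. Their p-values restate a value that the choice of members used and carry no further support. ENSCAFG00000026076 had its only value in CMT-577 (log2 difference 1.75, adjusted p = 0.0447, limma) and ENSCAFG00000021062, named after its values were seen, in CMT-340, at 550 FPKM (1.14, adjusted p = 0.0459, limma). Without the CMT in question both were at 0 in every CMT compared and had no test. Over the 8 fits that left out 1 sarcoma and spindle cell CMT each, 4 to 6 members were called, among 586 to 1177 called identifiers. ENSCAFG00000009548 was called in all 8, with log2 differences of 1.76 to 2.58. In these fits, too, it passed the filter through the sarcoma and spindle cell CMTs alone. Counting CMTs above 10 FPKM by Fisher's exact test called 0 of 64 members, where 0.874% of identifiers were called, and 3 members had an unadjusted p under 0.05.

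**Figure D5:**
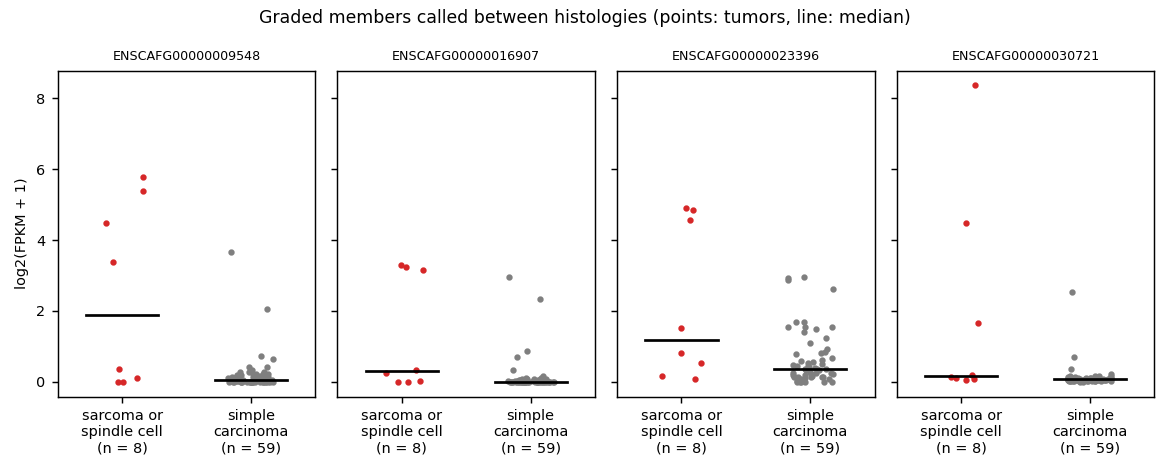
The 4 graded members called by limma between sarcoma and spindle cell CMTs (red, n = 8) and simple carcinomas (gray, n = 59), as log2(FPKM + 1) per CMT with the median as a line. In each member 2 or 3 of the 8 CMTs lie above every simple carcinoma and the others overlap with them.

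Between grade 3 (n = 28) and grade 1 (n = 62), 1 of 69 members tested was called, and it was higher in grade 3. Of all identifiers tested, 2.42% were called in either direction and 0.828% as higher in grade 3. ENSCAFG00000023396 ran from 0 to 28.9 FPKM with a median of 1.02 in grade 3 CMTs and from 0 to 1.87 with a median of 0.192 in grade 1 CMTs, and 22 of 28 grade 3 CMTs lay above the grade 1 median. The log2 difference was 1.04 (SE 0.176, adjusted p = 4.13e-06, limma). The mean of this member was 3.47 FPKM in grade 3 CMTs and 0.295 in grade 1 CMTs. It thus passed the filter through the grade 3 CMTs alone, and this p-value carries no further support. The highest value of this member over all CMTs, 55.1 FPKM, lay in the benign mixed tumor CMT-695, outside this comparison. Among the grades compared, its highest values lay in sarcoma and spindle cell CMTs. Without the sarcoma and spindle cell CMTs, the log2 difference was 0.88 (SE 0.138, adjusted p = 6.81e-07, limma, 23 against 61 CMTs). That was under the difference of 1 that a call required, and the p-value of this fit carries no further support either. Fisher's exact test on CMTs above 10 FPKM called 0 members and 3.37% of identifiers. The median log2 difference was -0.09 over the members tested and -0.03 over all identifiers.

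No member was called by limma in the other 5 comparisons, but for most members a call was out of reach. Even with its highest values all in 1 of the groups, a log2 difference of 1 was possible for 16 of the 100 members in malignant against benign, 18 in simple against complex, 26 in mixed against complex, 38 in invasion and 26 in receptor status. Malignant (n = 113) against benign CMTs (n = 44) called 0 of 82 members and 0.144% of all identifiers, with 2 members at an unadjusted p under 0.05. Simple (n = 59) against complex carcinomas (n = 33) called 0 of 70 members and 0.544% of identifiers, with 4 members at an unadjusted p under 0.05. Benign mixed tumors and carcinomas in them (n = 23) against complex adenomas and carcinomas (n = 49) called 0 of 53 members and 0% of identifiers, with 1 member at an unadjusted p under 0.05. CMTs with lymphatic invasion (n = 16) against malignant CMTs without it (n = 97) called 0 of 79 members and 1.38% of identifiers, with 8 members at an unadjusted p under 0.05. Estrogen receptor negative (n = 24) against positive CMTs (n = 128) called 0 of 81 members and 0.22% of identifiers, with 10 members at an unadjusted p under 0.05. The share of all identifiers at an unadjusted p under 0.05 was not computed. The counts of members at that p therefore have no background beside them and are not a result about the members. Fisher's exact test on CMTs above 10 FPKM called 0 members in each of these 5 comparisons. With all CMTs above 10 FPKM in the smaller group, 0 of the 100 members could have passed in the first 3, 8 in invasion and 6 in receptor status, so that this 0 adds little. It called 0% of identifiers for malignant against benign and for mixed against complex, 0.00857% for simple against complex, 0.243% for invasion and 0.0166% for receptor status. The members' median log2 difference was 0.07 for malignant against benign, 0.10 for simple against complex, -0.12 for mixed against complex, -0.08 for invasion and -0.06 for receptor status, and over all identifiers tested it was 0.01, -0.08, -0.11, -0.03 and -0.05.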

How the data were processed

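The authors mapped poly(A) RNA-seq reads to CanFam3.1 with TopHat2 2.0.9 and Bowtie2 and deposited FPKM values from Cufflinks 2.1.1, 1 column per library for 222 libraries. The read number behind each value is unknown, and no scaling beyond FPKM is stated. Histology, grade, invasion and receptor status came from the labels, and cluster and class from the study's clinical table, which has no line for CMT-351 and differs from the labels in histology or grade for some CMTs. That table gives 122 malignant and 35 benign CMTs, against 113 and 44 by the labels. It gives 63 simple and 36 complex carcinomas, against 59 and 33. Members, thresholds and lists were chosen with earlier results of these data known. Members named were the 10 with the highest value, the 10 with the most CMTs above 10 FPKM, those in groups linked by shared CMTs (at least 2 shared and a share of at least 0.5 of the CMTs with either), up to 2 called per direction and comparison, and those at the limits of the choice. Others are marked as chosen after their values were seen. Comparisons used limma 3.58.1 under R 4.3.3, with an intensity trend (pseudocount 1, mean at least 0.5 FPKM), which was tested on simulated data with normally distributed values, not on sparse ones. P-values measure the spread between CMTs of different dogs. Alternatives were a pseudocount of 0.1, a filter on any CMT above 10 FPKM, surgery year as a covariate, Fisher's exact test, the clinical table's histology and grade, thresholds of 5 and 20 FPKM, upper quartile scaling and leaving out CMTs. Counts used Python 3.11.15 with pandas 2.3.3.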

Additional observations from a re-analysis of the deposited data

Results flagged for a closer look

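In groups of 4 to 10 CMTs, the highest value was compared with its gap to the next (Dixon's ratio). Of 17 groups of values examined, 7 had a CMT far from the others. The usual rate of about 1 in 20 does not apply, since the members were chosen for a high value over a low median and counts with few distinct values are picked out readily. ENSCAFG00000026076 was at 16235 FPKM in CMT-577 and ENSCAFG00000021062 at 550 FPKM in CMT-340, against 0 in the other 7 sarcoma and spindle cell CMTs. ENSCAFG00000030721 was at 329 FPKM in CMT-290, and the next of the 8 was at 21.5. CMT-606 in NMF4 had 3 members above 10 FPKM, all 3 listed at 0 in nearly all libraries, and the next of the 7 NMF4 CMTs had 1. CMT-756 in NMF4 had 1 graded member above 10 FPKM and the other 6 had 0. CMT-215 among 10 benign mixed tumors had 2 members of the kind listed at 0 in nearly all libraries, and the next had 1.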

How the results depend on the processing

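Of 63 alternative counts, 55 stayed within 1.5 times of the reported count. Many of these were 0 calls that stayed at 0 in comparisons where a call was out of reach for most members. Such counts say little about stability. With 5 FPKM in place of 10, graded values rose from 71 to 109 and pairs sharing at least 2 CMTs from 5 to 14. With a pseudocount of 0.1, 2 of 69 members were called for grade, 3 of 79 for lymphatic invasion and 1 of 81 for receptor status, against 1, 0 and 0. All were called higher, in grade 3, with invasion or without the receptor. Of all identifiers, 279 of 14492, 232 of 14559 and 18 of 14574 were called higher there. The filter was the same, and members near silence pass it through their few high values. These calls of members therefore carry no further support. Fisher's exact test called 0 members for sarcoma and spindle cell CMTs against simple carcinomas, against 6, and 0 for grade, against 1. Few members could have passed that test in either comparison. Without the sarcoma and spindle cell CMTs, an alternative added after the values were seen, 0 of 67 members were called for grade, where 3.04% of identifiers were called. Leaving out 1 sarcoma and spindle cell CMT gave 4 to 6 called members, among 586 to 1177 called identifiers. The cause of these changes was not tested. Of 76 alternative values of the called members, 67 stayed called in the same direction, 9 kept the direction without the call and 0 reversed. This tally carries no further support for the calls. ENSCAFG00000026076 and ENSCAFG00000021062 were above 0 in 1 of the 8 CMTs each, so that leaving out any other of the 8 could only raise their difference. The other calls, except ENSCAFG00000023396 against simple carcinomas, passed the filter through the group where the member was high. In 8 further alternatives a called member fell below the filter and had no test, so that its call was lost there too. No paired analysis was possible because each CMT in the comparisons came from a different dog, and replicate numbers were given in accession order. Limits are the unknown read numbers, zeros that can be failed estimates, and sparse values, for which limma was not tested by simulation.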
